A study of Mus musculus with 39 samples.

Results

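Epididymal adipose tissue of C57BL/6J mice fed a high fat, high sucrose diet (HFC) was compared with that of mice on a low fat control diet (LFC) during the first 2 weeks of feeding. The comparison uses 8 of the 39 one-colour Agilent arrays of the series, namely the LFC and HFC arrays of day 6, day 10, day 14 and week 0, taken by their diet and time labels alone. Mice were weaned at 3 to 4 weeks of age and then assigned to a diet. Fat supplied 10% of the calories on LFC and 60% on HFC, which also held more sucrose, and no array of either diet received the plant formulation KAL-1 given elsewhere in the series. The strain is the only genetic label, and the number of animals behind an array is not stated for these time points, so each value stands for 1 array. The study's methods count weeks from day 14, which would give day 14 and week 0 the same time on the diet. Both week 0 titles carry a mark, R2, that the labels do not define. Each HFC array was set against the LFC array of its own time point, and the 4 pairs served as replicates, so p-values measure only the spread of the diet difference between time points.

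White adipose tissue stores triglyceride in adipocytes, which take up fatty acids, make some of their own from glucose, and release them by lipolysis. When a fat pad grows, its adipocytes enlarge and release more leptin, the hormone that reports fat stores to the brain. Between the adipocytes lie progenitors, blood vessels and resident macrophages, and a visceral pad such as the epididymal one is covered by a sheet of mesothelial cells.

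Signals are given as log2 of the background-subtracted intensity minus the 75th percentile of the array, so that a difference of 1 is a 2-fold difference. Values for single arrays are always in the order day 6, day 10, day 14 and week 0. Of the spots on an array 67.0% to 79.2% were well above background, 331 to 716 spots were saturated, and the 75th percentile was 656 to 1276 intensity units. With 1 array per diet and time point, precision is limited by the number of arrays. The 8 adipocyte markers (Adipoq, Plin1, Cidec, Lep, Cfd, Retn, Lpl and Fabp4) were well above background on all 8 arrays. The 5 macrophage markers, the 4 mesothelium markers, the 3 T cell markers and the 3 brown fat markers were also well above background on all 8 arrays, and none of the 6 epididymis markers was.

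Over all 30483 probes tested, which carry 21721 gene names, limma, blocked by time point, called 0 at an adjusted p of 0.05 (0%), and the smallest adjusted p was 0.525. At an unadjusted p under 0.05 there were 669 probes higher on HFC (2.19%) and 1844 lower (6.05%). A t-test on the 4 paired differences gave 368 and 1039 at that threshold and 0 after Benjamini-Hochberg adjustment. The study's methods describe a t-test between repeats of each diet at a single time point, which 1 array per diet does not allow. In all 4 pairs 1868 of the 30060 probes with a value in every pair were higher on HFC (6.21%) and 3525 were lower (11.7%). The median difference of all probes was -0.06, with a median standard error (SE) of 0.29. Of the 30483 differences 13624 were positive and 16859 negative, the background for the sign counts of lists below. The split between directions depends on the scaling: quantile scaling gave 1040 higher and 1030 lower at an unadjusted p under 0.05, and median scaling, which moved the median of all probes to 0.07, gave 997 and 1450. Every gene named below has an adjusted limma p of 0.525 unless another is given, so no single gene passes, and p in what follows is the unadjusted p of limma, two-sided.

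The 4 pairs did not carry equal differences. The share of probes at least 2-fold apart between the diets was 10.4% at day 6, 35.5% at day 10, 33.3% at day 14 and 4.66% at week 0. Across probes the differences of the day 10 and day 14 pairs correlated at r = 0.54, and every other 2 pairs at -0.10 to 0.10, as a description over probes, which are not independent.

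The arrays fell into the same order in many gene lists. The lipolysis and lipid droplet list, made of the lipases, their regulators and the proteins that coat the lipid droplet, had a median level of 4.57, 2.51, 1.25 and 2.60 on LFC and 4.52, 4.24, 4.00 and 2.82 on HFC. It was thus high on both day 6 arrays and on HFC at day 10 and day 14, and low on the LFC arrays of day 10 and day 14 and on both week 0 arrays. The endothelium and angiogenesis list had the opposite order, with 1.74, 3.46, 3.46 and 2.87 on LFC and 1.77, 1.19, 1.86 and 3.14 on HFC. The immediate early genes respond within minutes to stress or stimulation, and many of them encode transcription factors. Their median stood at 1.21, 4.47, 4.94 and 4.65 on LFC and -0.30, -0.12, 3.30 and 4.71 on HFC, lowest on the day 6 arrays and on HFC at day 10. In bulk tissue, fewer cells of a type and less RNA per cell cannot be told apart.

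Genes of other tissues also differed between arrays. The summed signal of the epididymis list, on the log2 scale, was -1.36, 7.11, 6.47 and -0.87 on LFC and -1.82, 7.42, 4.22 and 5.34 on HFC, lowest on both day 6 arrays and LFC week 0. Its defining markers had a median of -7.53, 2.03, 1.11 and -5.40 on LFC and -7.60, 0.63, -5.87 and -4.94 on HFC, and the testis markers -3.61, 3.77, 0.27 and -4.05 and -4.36, -3.02, -3.86 and -2.34. Both marker sets were highest on the LFC array of day 10, and the epididymis markers were also above 0 on LFC at day 14 and on HFC at day 10. The T cell list had its highest median, -1.01, on HFC at day 10, against -3.39 to -3.19 on the other HFC arrays. The part of these genes in the diet differences was not tested. In the lipolysis and endothelium lists the day 10 and day 14 pairs set unlike arrays against each other and the day 6 and week 0 pairs did not, so the difference over these 2 pairs alone, called the outer pairs, is given beside each difference of a gene where it is smaller by more than 1.5 times or has the other sign. Over all probes its median was -0.03. The outer pairs were picked after the data were seen, because these 2 lists differed little there. Small outer-pair values of the genes of these lists thus follow from the choice. Outer-pair values describe and do not test.

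**Figure D1:**
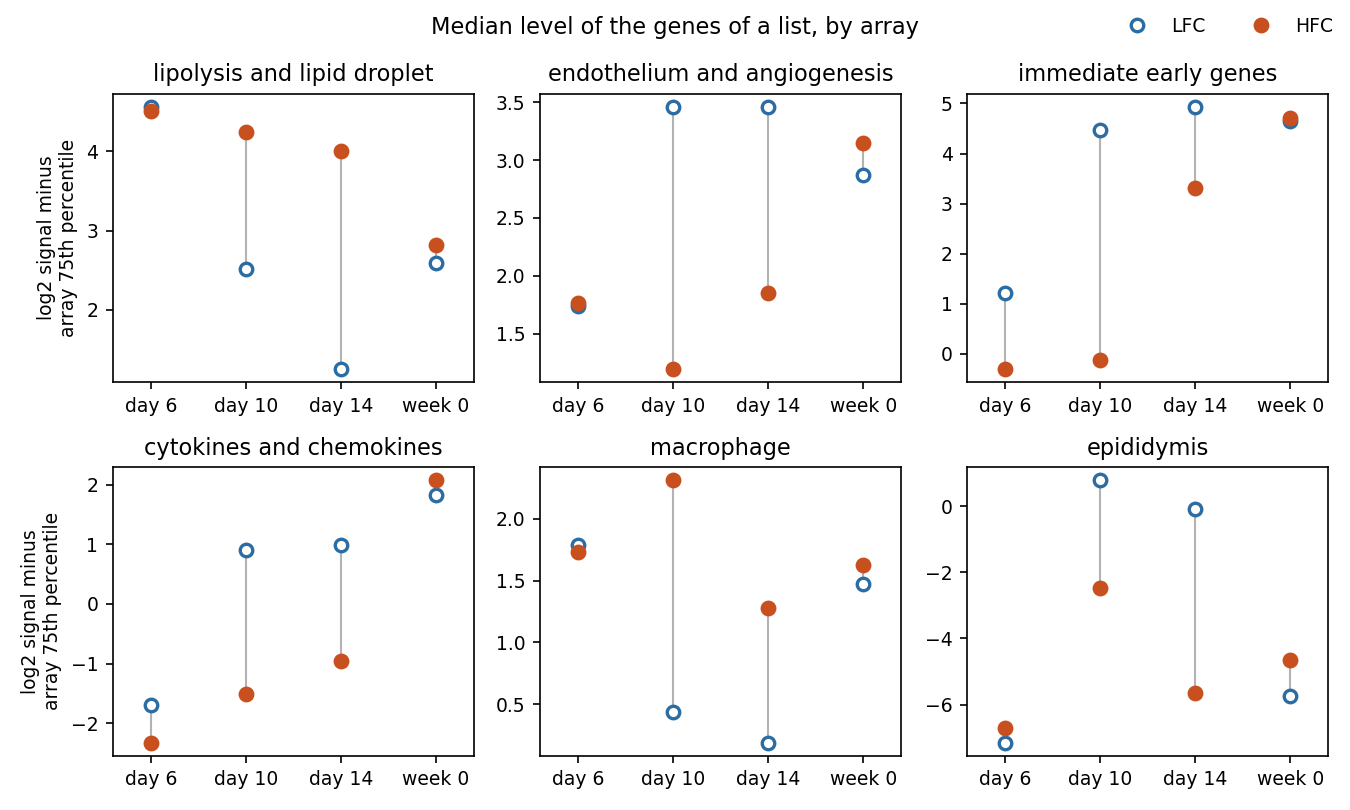
Median log2 signal (minus the array's 75th percentile, y axis) of the genes of 6 lists on each array, by time point (x axis), with LFC as open and HFC as filled points and a line joining each pair. The lipolysis list differs by over 1 unit at day 10 and day 14 and by little at day 6 and week 0, and the endothelium and immediate early lists lie the other way.

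**Figure D2:**
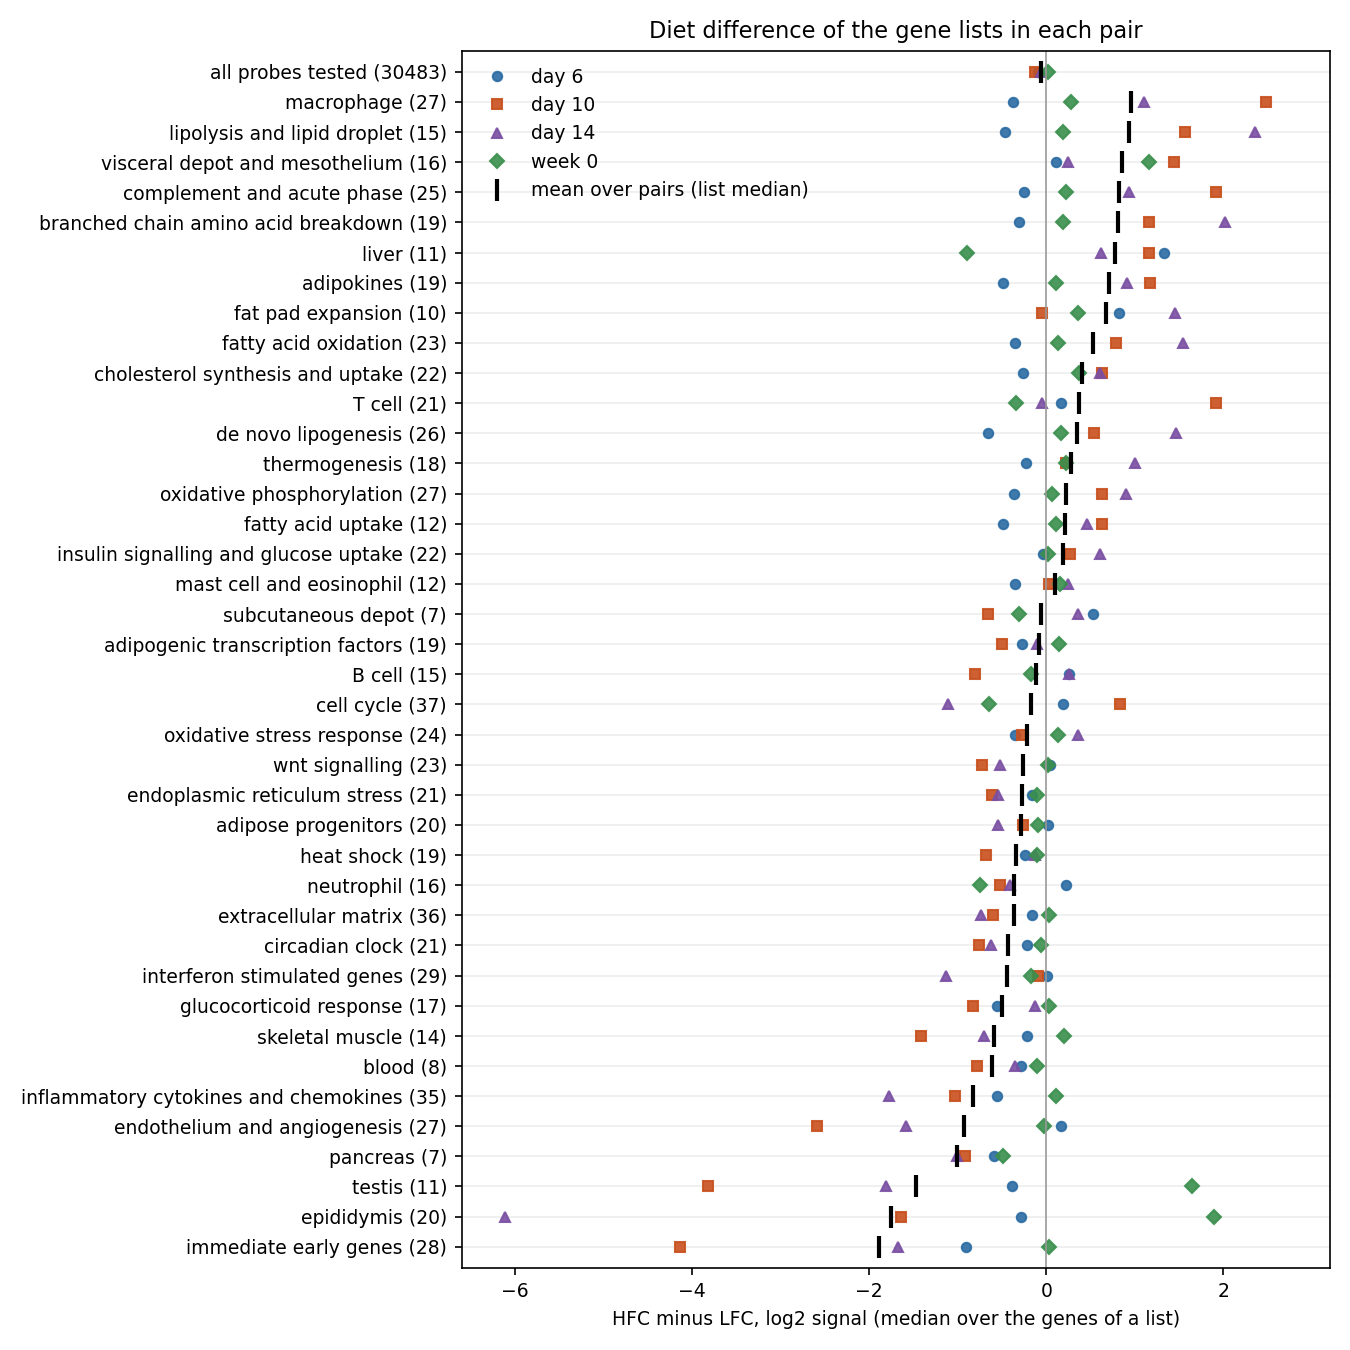
Median HFC minus LFC difference (x axis, log2) over the genes of each of the 39 lists (y axis, number of genes tested in brackets) in each of the 4 pairs, with the list median of the mean over pairs as a black bar. The points of day 10 and day 14 lie farthest from 0 in most lists, and those of week 0 mostly near 0, while all probes together lie near 0 in every pair.

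Among the 10 genes of the fat pad expansion list, genes known to vary with the growth of mouse fat pads, 4 were higher on HFC in all 4 pairs and at p under 0.05, and 0 were lower, beside 2.19% and 6.05% of all probes at that threshold and 6.21% higher in all 4 pairs. These 4 were Lep, Nnat, Bmp3 and Npr3, and 4 of the 10 genes had a negative difference. Members of this and the other lists were chosen with earlier results of these data known, so list counts describe and do not test. Bmp3 is also among the 12 genes named below by smallest p. The signal of Lep, which encodes leptin, was -0.10, -2.32, -1.89 and -0.68 on LFC and 1.99, 1.23, 3.31 and 0.81 on HFC. Every HFC array was above every LFC array. The difference was 3.08 (SE 0.64, p 0.00352), which is 8.48-fold, and 1.79 over the outer pairs.

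The 250 bases before the annotated start of Lep (chr6:29059971-29060220, plus strand, GRCm38.p6, RefSeq) are shown because this gene had one of the largest differences of the tissue's own secreted products. The capitals mark a palindrome read by C/EBP factors, TTGCGCAA, found by a search of both strands. It lies 55 bases before the start, and 0.185% of the 27025 genes with such a window hold it.
Lep: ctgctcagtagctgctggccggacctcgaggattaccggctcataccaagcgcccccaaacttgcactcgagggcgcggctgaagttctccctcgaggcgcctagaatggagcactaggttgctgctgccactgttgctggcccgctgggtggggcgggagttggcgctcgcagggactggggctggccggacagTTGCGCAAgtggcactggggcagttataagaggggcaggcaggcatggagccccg

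The signal of Nnat, neuronatin, a small membrane protein of the endoplasmic reticulum, was -0.59, -2.25, -2.40 and -2.07 on LFC and 1.91, 0.94, 4.09 and 0.34 on HFC. Again no HFC array reached down to an LFC array. The difference was 3.65 (SE 0.73, p 0.0031), or 12.5-fold, and 2.45 over the outer pairs. Bmp3, a secreted member of the bone morphogenetic protein family, stood at -4.26, -5.00, -4.58 and -5.73 on LFC and -2.11, -4.07, -1.78 and -2.23 on HFC. The diets did not overlap, and unlike Lep and Nnat it differed most in the week 0 pair and least in the day 10 pair. Its difference was 2.34 (SE 0.44, p 0.00236).

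Npr3, the clearance receptor for natriuretic peptides, had 1.17, 1.33, 0.99 and 2.04 on LFC and 2.99, 1.75, 4.10 and 2.31 on HFC, and differed by 1.40 (SE 0.53, p 0.0396). It was higher on HFC in each pair, although the HFC array of day 10 lay below the LFC array of week 0. Mest, an imprinted hydrolase-like gene of expanding fat, had 2.44, 2.94, 3.16 and 3.26 on LFC and 4.65, 2.56, 5.05 and 3.72 on HFC. It was higher on HFC in 3 pairs and lower at day 10, and its difference of 1.04 (SE 0.49) had p 0.0795. Sfrp5, a secreted Wnt antagonist, was lower on HFC at day 6, day 10 and day 14 and higher at week 0, with a difference of -0.96 (SE 0.57, p 0.145, outer pairs -0.26, adjusted p 0.526 by limma). The caveola genes Cav1, Ptrf and Sdpr were saturated on all 4 HFC arrays, so their levels there are only bounds.

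**Figure D3:**
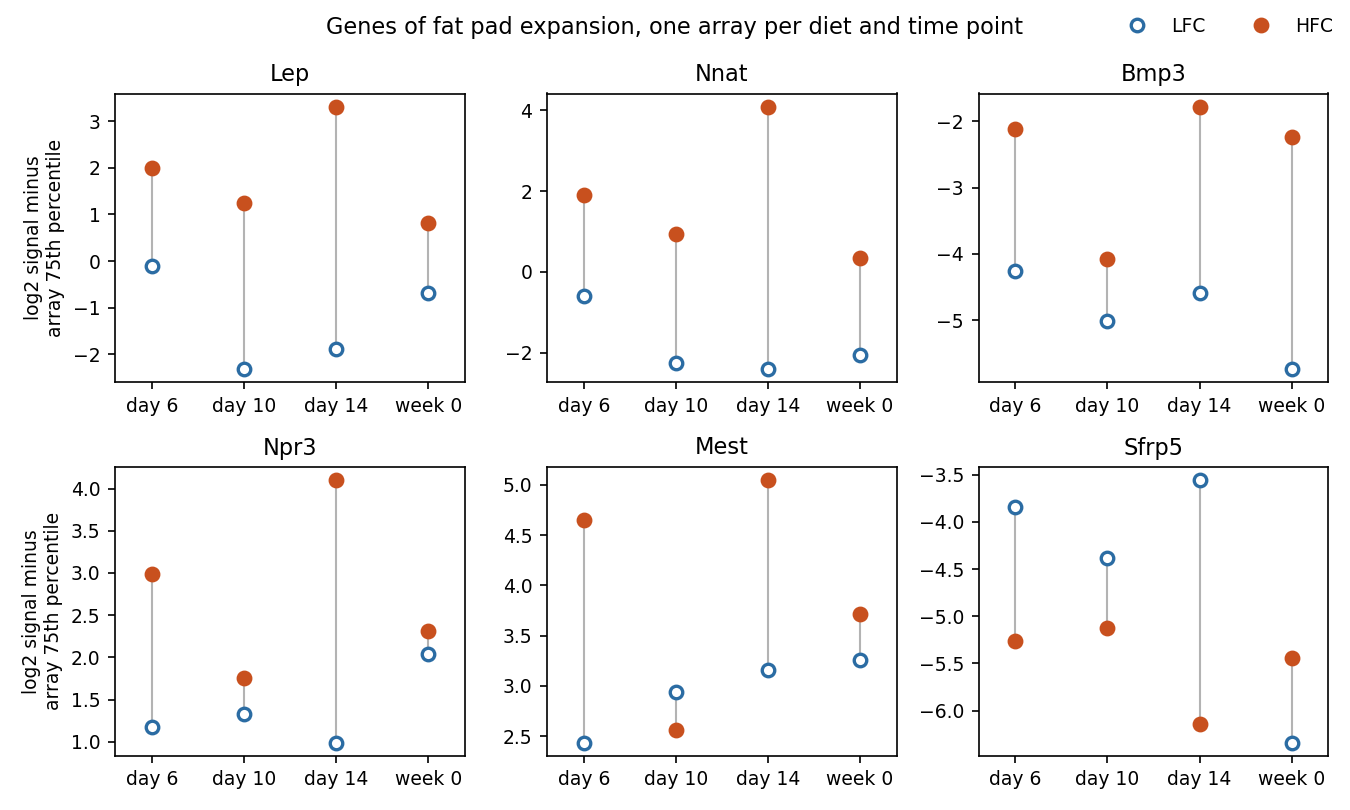
Log2 signal minus the array's 75th percentile (y axis) of 6 genes of the fat pad expansion list at each time point (x axis), 1 array per diet, with LFC as open and HFC as filled points. The HFC points of Lep, Nnat and Bmp3 all lie above all LFC points, whereas Mest is lower on HFC at day 10 and Sfrp5 is mostly lower on HFC.

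The enzymes and regulators of de novo lipogenesis, which turn glucose carbon into fatty acids, were mixed. Of 26 genes, 1 was higher and 1 lower at p under 0.05, beside 2.19% and 6.05% of all probes. The list median was 0.35, with -0.26 over the outer pairs. Pnpla3, a lipid droplet acyltransferase and lipase induced by feeding, had 3.27, 0.34, -0.04 and 0.71 on LFC and 4.80, 3.74, 3.62 and 1.35 on HFC. Its HFC value was the higher in each pair, with a difference of 2.31 (SE 0.57, p 0.0078) and 1.09 over the outer pairs. Acly, which makes the acetyl-CoA for fatty acid synthesis, went the other way with 4.18, 2.29, 1.24 and 1.14 on LFC and 3.06, 0.46, 0.99 and 0.47 on HFC. It was lower on HFC in each pair, with a difference of -0.97 (SE 0.31, p 0.0234), and of -0.89 over the outer pairs. Elovl6, which lengthens palmitate, was lower on HFC in 3 pairs and higher at day 14, with a difference of -0.71 (SE 0.31, p 0.0618). Fasn, fatty acid synthase itself, was saturated on all 4 HFC arrays.

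The lipolysis and lipid droplet list had a median difference of 0.94 over 15 genes, 11 of them positive, with 0 at p under 0.05 in either direction. Its pair medians were -0.47, 1.57, 2.35 and 0.19, positive at day 10, day 14 and week 0 only, and over the outer pairs the median was -0.09. Adrb3, the beta-3 adrenergic receptor that starts lipolysis, is an example, with 5.94, 2.51, 1.25 and 2.60 on LFC and 5.78, 5.70, 5.89 and 2.83 on HFC. Its diets were close at day 6 and week 0 and far apart at day 10 and day 14, and the difference was 1.98 (SE 0.87, p 0.0677), with 0.04 over the outer pairs. Plin1, the main coat protein of the droplet, was saturated on 3 HFC arrays, so its difference of 1.42 (SE 0.69, p 0.0888), with 0.05 over the outer pairs, rests partly on saturated spots. At day 6 Plin1 and the adipocyte marker Cidec stood at 6.47 and 6.59 on LFC and both at 5.92 on HFC. The 75th percentiles of those arrays were 697 and 1031 units, and a saturated spot differs by this scaling alone. How much saturation adds to the negative day 6 median of the list was not tested. G0s2, an inhibitor of adipose triglyceride lipase, differed by 1.84 (SE 0.78, p 0.0592) and by 0.07 over the outer pairs.

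Other metabolic lists had the same shape. At p under 0.05, 2.19% of all probes were higher and 6.05% lower. A positive difference was found for 13624 of the 30483 probes. The branched chain amino acid breakdown list, with 18 of 19 genes positive, had a median of 0.81 and 1 gene at p under 0.05, the dehydrogenase subunit Bckdhb (1.30, SE 0.51, p 0.0464, outer pairs 0.21). Over the outer pairs its median was -0.04. Fatty acid oxidation had 21 of 23 genes positive and a median of 0.53, and -0.08 over the outer pairs. Its 1 gene at p under 0.05 was Ucp3, a mitochondrial carrier that follows fatty acid supply, at 0.13, -3.81, -5.53 and -6.66 on LFC and 0.24, -0.85, -1.23 and -4.92 on HFC. Ucp3 was close between diets at day 6 and higher on HFC at the other time points, by 2.28 on average (SE 0.68, p 0.0175, outer pairs 0.93).

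Cholesterol synthesis and uptake had 18 of 22 genes positive, a median of 0.41 and 1 gene at p under 0.05, Hmgcs1, an early enzyme of the pathway (0.97, SE 0.32, p 0.0257, outer pairs 0.43). The oxidative phosphorylation list (median 0.22, 27 genes) and the fatty acid uptake list (0.22, 12 genes) had 0 genes at p under 0.05. In the thermogenesis list (median 0.27, 18 genes) 1 gene was higher at that threshold, Pank1, which starts coenzyme A synthesis (0.62, SE 0.23, p 0.0396, outer pairs 0.36). Over the outer pairs the medians were 0.09 for cholesterol, -0.14 for oxidative phosphorylation, -0.14 for fatty acid uptake and -0.05 for thermogenesis.

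In insulin signalling the 2 adaptor proteins of the receptor went opposite ways. Irs1 had 2.44, 0.48, -0.04 and 0.38 on LFC and 2.69, 2.36, 2.63 and 0.61 on HFC, higher on HFC by 1.25 (SE 0.49, p 0.0448, outer pairs 0.24). Irs2 had 2.33, 4.37, 4.02 and 3.94 on LFC and 0.87, 2.33, 2.77 and 3.93 on HFC, lower on HFC with a difference of -1.19 (SE 0.37, p 0.02, outer pairs -0.73). Each kept its direction in the 4 pairs, but the week 0 difference of Irs2 was near 0. The list as a whole had 1 gene higher and 2 lower at p under 0.05 of 22 genes, beside 2.19% and 6.05% of all probes. Its median was 0.19, and -0.02 over the outer pairs. Among 19 adipogenic transcription factors 1 was higher and 3 lower at that threshold, and among these Cebpb, which acts early in adipocyte formation, differed by -0.99 (SE 0.31, p 0.02, outer pairs -0.49) and Klf4, which lies upstream of it, by -1.49 (SE 0.57, p 0.0424, outer pairs -0.43). Klf4 was saturated on 2 LFC arrays and 1 HFC array, so its value rests partly on saturated spots. Cebpa, the factor of mature adipocytes, had 4.00, 0.91, 0.74 and 0.23 on LFC and 3.45, 3.37, 4.66 and 0.91 on HFC and a difference of 1.62 (SE 0.75) with p 0.0758, and 0.06 over the outer pairs. Its HFC array was below the LFC array at day 6.

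Of the other secreted products of fat, Itih4, an acute phase inhibitor-chain protein, was lower on HFC in each pair, with -1.10, -0.67, -2.42 and -3.42 on LFC and -2.81, -2.50, -3.46 and -4.12 on HFC (difference -1.32, SE 0.28, p 0.00377). Adipoq, adiponectin, was saturated on 3 HFC arrays and 1 LFC array, so its difference of 1.03, with 0.03 over the outer pairs, rests partly on saturated spots. Lcn2, lipocalin 2, had a difference of 0.88 (SE 0.60, p 0.195, adjusted p 0.544 by limma) and of -0.29 over the outer pairs. In the adipokine list of 19 genes 1 was higher, Lep, and 2 were lower at p under 0.05, beside 2.19% and 6.05% of all probes.

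Of 27 macrophage genes 5 were higher on HFC at p under 0.05, 0 were lower, and 7 were higher in all 4 pairs, beside 2.19%, 6.05% and 6.21% of all probes. The 5 were Cd209f, Folr2, Emr1, Clec10a and Mrc1, genes known from tissue macrophages. Cd209f, a C-type lectin, stood at 2.27, 1.35, 0.50 and 2.66 on LFC and 3.33, 2.97, 2.83 and 3.27 on HFC. No LFC array reached the lowest HFC array. The difference was 1.41 (SE 0.33, p 0.00654), and 0.84 over the outer pairs, and its other probe gave 0.57.

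Emr1 (Adgre1 in the reference table), a surface receptor used to mark mouse macrophages, had 2.68, 1.53, 1.25 and 2.69 on LFC and 3.00, 4.02, 3.03 and 3.07 on HFC. Its diets did not overlap either, with gaps that were large at day 10 and day 14 and small at day 6 and week 0. The difference was 1.25 (SE 0.44, p 0.0317), and 0.35 over the outer pairs. Folr2, a folate receptor, had 2.02, 0.45, 0.19 and 2.39 on LFC and 2.40, 2.93, 1.86 and 3.12 on HFC (difference 1.32, SE 0.40, p 0.0181, outer pairs 0.56). Mrc1, the mannose receptor, differed by 0.98 (SE 0.37, p 0.0422, outer pairs 0.24) and Clec10a, another lectin, by 0.96 (SE 0.35, p 0.0362, outer pairs 0.28). Others of the list had differences as large without reaching that threshold. Timd4, a receptor of resident macrophages, differed by 1.18 (SE 0.56, p 0.0837, outer pairs 0.47). Itgax, which encodes CD11c and is linked to recruited macrophages, differed by 0.97 (SE 0.52, p 0.117) and by 0.00 over the outer pairs. Ccr2, the receptor for Ccl2 on monocytes, had -0.42, -2.66, -2.29 and -1.59 on LFC and -0.50, 1.77, -0.50 and -2.07 on HFC, with its highest value on HFC at day 10. It differed by 1.42 (SE 0.85, p 0.149, adjusted p 0.528 by limma), and by -0.28 over the outer pairs. Lyz2, a macrophage marker, went the other way at -1.10 over 3 pairs (SE 0.54, p 0.106, outer pairs -0.38). Its other probe gave 1.25, and Lyz2 was saturated on 2 arrays of each diet. Of the 27 genes 23 were positive and 4 negative. The median of the whole list was 0.96, with pair medians of -0.38, 2.48, 1.11 and 0.27, and -0.02 over the outer pairs.

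The visceral depot and mesothelium list had 6 of 16 genes higher and 1 lower at p under 0.05, beside 2.19% and 6.05% of all probes. Its median was 0.86, positive in each pair (0.11, 1.44, 0.25 and 1.16), and 0.61 over the outer pairs. Upk3b, a uroplakin of mesothelial cells, had 0.43, -1.54, -0.83 and -0.93 on LFC and 0.90, 1.29, 0.04 and 0.70 on HFC. It was higher on HFC in each pair, and only the LFC array of day 6 reached the range of HFC. The difference was 1.45 (SE 0.43, p 0.0162).

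Msln, mesothelin, a surface protein of the same cells, had 1.95, 0.63, 1.28 and 2.08 on LFC and 2.48, 3.36, 1.77 and 3.19 on HFC (difference 1.22, SE 0.43, p 0.0327). Lrrn4, a leucine-rich repeat protein, had -1.002, -2.52, -2.10 and -2.15 on LFC and -0.37, 0.89, -1.23 and -0.36 on HFC (difference 1.67, SE 0.50, p 0.0174). Bnc1, the transcription factor basonuclin 1, differed by 1.53 (SE 0.45, p 0.0163) and Rspo1, a secreted activator of Wnt signalling, by 1.16 (SE 0.34, p 0.0162). Tcf21, a factor of visceral stromal progenitors rather than of mesothelium, was the gene lower at that threshold (-0.99, SE 0.36, p 0.035, outer pairs -0.35). Wt1, a defining factor of mesothelium, differed by 0.19 (p 0.505, adjusted p 0.74 by limma, outer pairs 0.09). Of 20 adipose progenitor genes 1 was higher and 1 lower at p under 0.05, beside 2.19% and 6.05% of all probes. The higher one was Dpp4, a surface peptidase of early progenitors, with -1.15, -1.36, -1.73 and -0.76 on LFC and -0.45, -0.06, -0.46 and -0.07 on HFC and no overlap between the diets (difference 0.99, SE 0.23, p 0.00596).

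**Figure D4:**
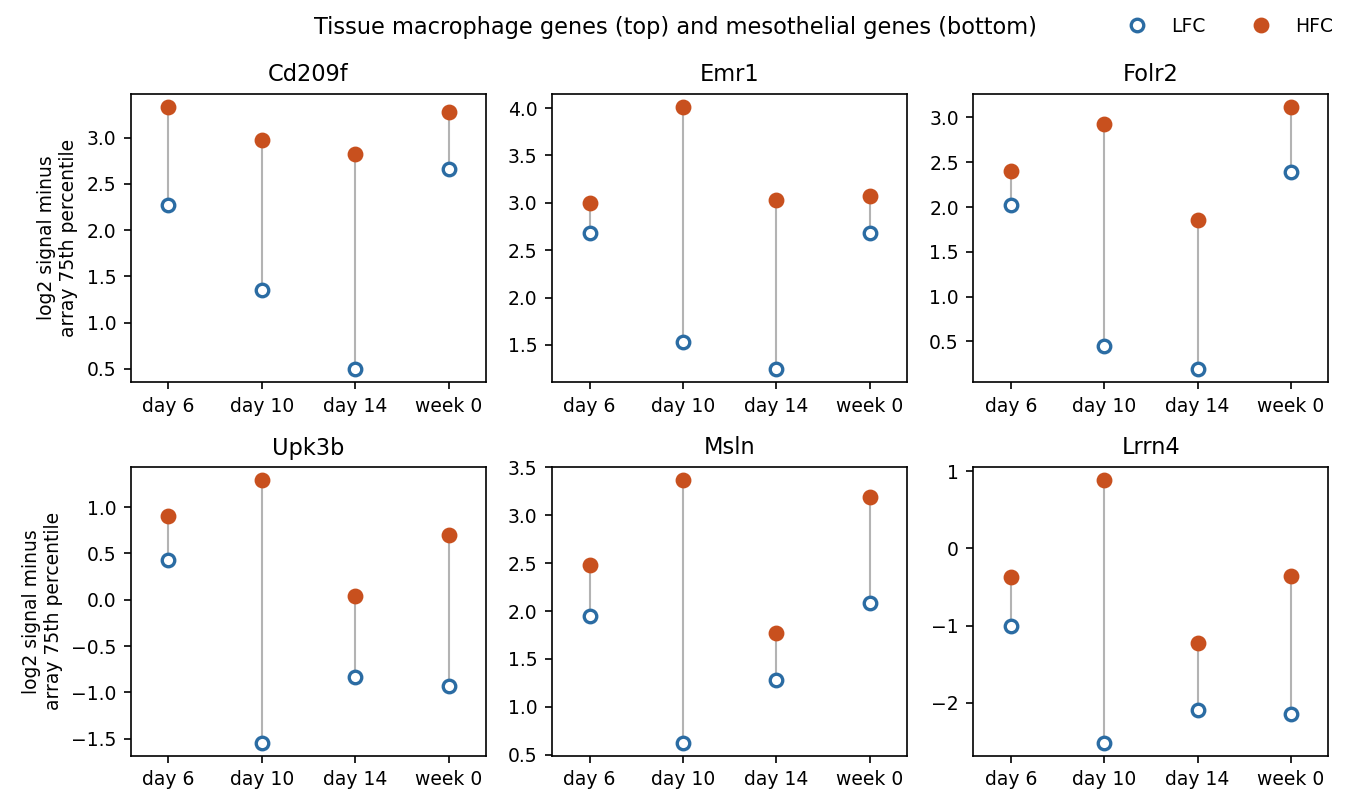
Log2 signal minus the array's 75th percentile (y axis) at each time point (x axis) for 3 tissue macrophage genes (top) and 3 mesothelial genes (bottom), 1 array per diet, with LFC as open and HFC as filled points. The HFC point is above the LFC point in all 4 pairs of each gene, with the widest gaps mostly at day 10 and, for the macrophage genes, also at day 14.

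Cytokine and chemokine genes lay the other way. Of 35 genes 9 were lower on HFC at p under 0.05, 0 were higher, and 11 were lower in all 4 pairs, beside 6.05%, 2.19% and 11.7% of all probes, with a list median of -0.82. The pair medians were -0.56, -1.03, -1.78 and 0.11, and over the outer pairs the median was -0.20. Il6, interleukin 6, had -5.09, 5.39, 4.90 and 5.23 on LFC and -6.12, -6.07, -1.98 and 4.91 on HFC. It was high on LFC at day 10 and day 14 and on both week 0 arrays, and low on both day 6 arrays and on HFC at day 10. The difference was -4.92 (SE 1.94, p 0.0471), and -0.68 over the outer pairs.

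Cxcl1, which attracts neutrophils, had -2.46, 4.02, 4.40 and 5.07 on LFC and -4.51, -4.55, -0.41 and 4.28 on HFC. It was lower on HFC in each pair, and the 2 diets overlapped. The difference was -4.06 (SE 1.28, p 0.0213), and -1.42 over the outer pairs. Ccl2, which attracts monocytes, had 2.41, 4.44, 3.99 and 5.64 on LFC and 1.31, 1.98, 1.98 and 5.36 on HFC, where 1 LFC spot was saturated (difference -1.46, SE 0.40, p 0.0127, outer pairs -0.69). Its relatives Ccl7 (-1.47, SE 0.42, p 0.0141, outer pairs -0.64) and Ccl11, which attracts eosinophils (-0.79, SE 0.24, p 0.0173), were also lower on HFC in each pair. Csf2, a growth factor for granulocytes and macrophages, differed by -1.99 (SE 0.46, p 0.00584, outer pairs -1.02) and was well above background on 3 LFC and 2 HFC arrays. Il1b, interleukin 1 beta, differed by -1.82 (SE 0.71, p 0.0456) and by -0.24 over the outer pairs. Tnf, tumour necrosis factor, differed by -1.65 (SE 0.86, p 0.109), with 0.28 over the outer pairs, and Ccl6, a chemokine made by macrophages, by 1.35 (SE 0.76, p 0.127), with -0.19.

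The windows before the starts of Il6 (chr5:30012864-30013113, plus strand, GRCm38.p6, RefSeq) and Cxcl1 (chr5:90890995-90891244, plus strand) are printed because these genes had the largest negative differences of their list. Capitals mark matches to the NF-kappaB motif on either strand, 1 in Il6 at 44 bases before the start and 2 overlapping ones in Cxcl1 at 71 and 70. Of the 24 genes of the list with a window 7 hold it (29.2%), against 4.46% of all 27025 genes and 17.4% of the 23 immediate early genes. A match describes the letters and says nothing of binding.
Il6: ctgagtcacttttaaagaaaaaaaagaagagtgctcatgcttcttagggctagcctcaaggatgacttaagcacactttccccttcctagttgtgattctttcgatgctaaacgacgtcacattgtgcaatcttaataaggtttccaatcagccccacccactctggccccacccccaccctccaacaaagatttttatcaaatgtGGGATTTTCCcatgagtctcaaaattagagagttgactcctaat
Cxcl1: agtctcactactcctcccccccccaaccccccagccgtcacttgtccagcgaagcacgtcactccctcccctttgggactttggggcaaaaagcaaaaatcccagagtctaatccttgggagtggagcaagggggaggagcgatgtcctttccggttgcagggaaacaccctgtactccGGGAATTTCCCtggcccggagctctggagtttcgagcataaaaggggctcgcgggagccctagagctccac

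The immediate early genes had the lowest median of all lists, -1.89, with 12 of 28 genes lower at p under 0.05, 0 higher and 9 lower in all 4 pairs, beside 6.05%, 2.19% and 11.7% of all probes. Fos, a subunit of the AP-1 factor, had 0.86, 4.13, 4.97 and 5.30 on LFC and -3.48, -2.32, 3.97 and 5.41 on HFC. Its HFC arrays of day 6 and day 10 were far below all others, and at week 0 the diets were level. The difference was -2.92 (SE 1.12, p 0.0435). Egr2, a zinc finger factor, had -0.83, 3.18, 3.30 and 3.37 on LFC and -1.53, 0.62, 1.19 and 2.18 on HFC, lower on HFC in each pair (difference -1.64, SE 0.37, p 0.00501, outer pairs -0.94). Myc differed by -1.50 (SE 0.42, p 0.0134, outer pairs -0.67), the stress factor Atf3 by -2.55 (SE 0.90, p 0.0331, outer pairs -0.85) and the Fos relative Fosl1 by -2.36 (SE 0.68, p 0.0145, outer pairs -1.51). Over the outer pairs the list median was -0.50.

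Other stress lists were lower by less. Of all probes 6.05% were lower and 2.19% higher at p under 0.05. The share lower was 15.8% for heat shock, 4.76% for endoplasmic reticulum stress and 11.8% for glucocorticoid response. Heat shock had 3 of 19 genes lower at p under 0.05 and a median of -0.34, with the inducible chaperone Hspa1a at 1.05, 6.19, 5.77 and 4.80 on LFC and -0.51, 0.18, 2.48 and 5.08 on HFC (-2.65, SE 1.001, p 0.0411, outer pairs -0.64). That gene follows the order of the immediate early list, with both week 0 arrays high and HFC at day 6 and day 10 low. The endoplasmic reticulum stress list had 1 of 21 lower, the apoptosis-linked factor Ddit3 (-1.24, SE 0.40, p 0.0244, outer pairs -0.40), and a median of -0.27. The glucocorticoid response list had 2 of 17 lower and a median of -0.50, among them Errfi1, a feedback inhibitor of growth factor receptors (-1.32, SE 0.41, p 0.0195, outer pairs -0.62). Over the outer pairs the medians were -0.22 for heat shock, -0.12 for endoplasmic reticulum stress and -0.39 for glucocorticoid response. The oxidative stress list was split, 1 of 24 higher (Cat, catalase, 1.46, SE 0.58, p 0.0497, outer pairs 0.19) and 1 lower (Srxn1, sulfiredoxin, -1.21, SE 0.46, p 0.0403, outer pairs -0.48).

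Of 21 circadian clock genes 6 were lower on HFC and 1 higher at p under 0.05, and 7 were lower in all 4 pairs, beside 6.05%, 2.19% and 11.7% of all probes. The list median was -0.43, with -0.18 over the outer pairs. Dbp, a clock-driven transcription factor, had 3.66, 3.73, 4.58 and 4.52 on LFC and 1.89, 2.93, 3.60 and 3.79 on HFC. It was lower on HFC in each pair, most at day 6, and the diets overlapped. The difference was -1.07 (SE 0.26, p 0.00736), and -1.25 over the outer pairs.

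Per1, a repressor of the clock, had 1.24, 2.34, 2.84 and 2.52 on LFC and -0.11, 1.01, 1.87 and 2.32 on HFC (difference -0.96, SE 0.28, p 0.0145). Ciart, another repressor, had -6.54, -4.25, -2.79 and -2.22 on LFC and -7.16, -5.88, -3.94 and -2.54 on HFC (difference -0.93, SE 0.29, p 0.0195, outer pairs -0.47). Ciart was well above background on 3 LFC and 3 HFC arrays. It differed more between time points than between diets. Nr1d2, which encodes the nuclear receptor REV-ERB beta, differed by -1.06 (SE 0.36, p 0.0279, outer pairs -0.50), Per2 by -0.66 (SE 0.24, p 0.0374) and Wee1, a clock-controlled kinase, by -0.82 (SE 0.24, p 0.0171). The gene higher on HFC was Arntl, which encodes the activator BMAL1, with -1.04, -1.19, -2.43 and -1.68 on LFC and -0.24, -1.05, -1.31 and -0.81 on HFC. It was higher on HFC in each pair, by 0.73 (SE 0.25, p 0.0267). Bhlhe40, a repressor that many stimuli also induce, had a difference of -1.51 (SE 0.84, p 0.129) and of 0.29 over the outer pairs. The hour at which tissue was taken is not given in the labels.

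The windows before the starts of Per1 (chr11:69098699-69098948, plus strand, GRCm38.p6, RefSeq) and Ciart (chr3:95882229-95882478, minus strand) show the E-box CACGTG, the site of the BMAL1 and CLOCK pair, in capitals. Per1 has 2 windows, and only the one that holds a match is printed, with 1 match at 166 bases before its start. Ciart holds 3, from 116 to 44 bases before its start. Of 17 clock genes with a window 5 hold an E-box (29.4%), against 6.86% of all 27025 genes, and of 23 immediate early genes 5 hold one as well (21.7%). The motif reads the same on both strands.
Per1: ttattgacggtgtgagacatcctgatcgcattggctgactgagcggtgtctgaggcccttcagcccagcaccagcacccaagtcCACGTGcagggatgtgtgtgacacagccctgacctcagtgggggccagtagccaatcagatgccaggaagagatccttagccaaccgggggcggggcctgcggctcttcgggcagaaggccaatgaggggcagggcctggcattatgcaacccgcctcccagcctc
Ciart: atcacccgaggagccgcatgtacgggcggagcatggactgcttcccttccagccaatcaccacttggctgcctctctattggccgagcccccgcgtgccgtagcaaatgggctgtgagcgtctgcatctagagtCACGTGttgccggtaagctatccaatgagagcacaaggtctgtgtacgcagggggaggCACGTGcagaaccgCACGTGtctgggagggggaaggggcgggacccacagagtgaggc

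**Figure D5:**
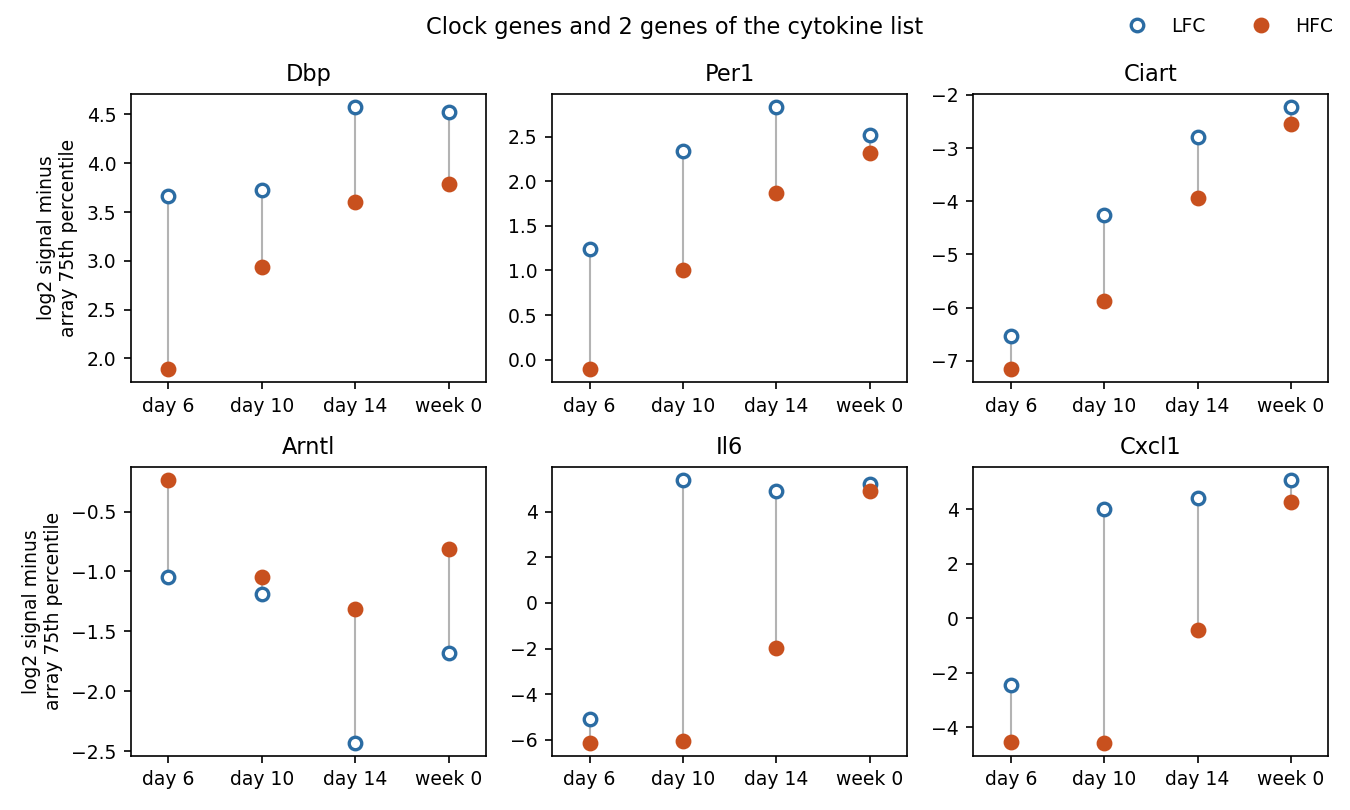
Log2 signal minus the array's 75th percentile (y axis) at each time point (x axis) for 4 clock genes and for Il6 and Cxcl1, 1 array per diet, with LFC as open and HFC as filled points. Dbp, Per1 and Ciart are lower and Arntl is higher on HFC in each pair, and the diets of Il6 lie far apart at day 10 and day 14 but close together at day 6 and week 0.

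The endothelium and angiogenesis list had 25 of 27 genes negative, beside 16859 of the 30483 probes. At p under 0.05 there were 2 of them, a share near the 6.05% of all probes. The list median was -0.92, against 0.09 over the outer pairs. The 2 were Vwf, von Willebrand factor (-1.75, SE 0.60, p 0.0291, outer pairs -0.52), and Plvap, a protein of endothelial pores (-1.50, SE 0.58, p 0.0456, outer pairs -0.21). The tight junction gene Cldn5 had a difference of -1.36 (SE 0.67, p 0.09) and of 0.14 over the outer pairs, values that rest partly on saturated spots, since it was saturated on 3 LFC arrays and 1 HFC array. The extracellular matrix list had 29 of 36 genes negative and a median of -0.36, with -0.06 over the outer pairs and 3 genes lower and 0 higher at p under 0.05, again a share near that of all probes.

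The 3 matrix genes lower at p under 0.05 were lower on HFC in each of the 4 pairs. Thbs1, the matrix and platelet protein thrombospondin 1, had -2.03, 2.63, 1.80 and 2.52 on LFC and -3.22, -2.66, -2.33 and 1.08 on HFC. It was lower on HFC in each pair, with a difference of -3.01 (SE 0.76, p 0.00879), and of -1.32 over the outer pairs. Thbs2, its relative, had 0.53, 0.09, 0.36 and -0.17 on LFC and -0.54, -0.67, -0.91 and -0.65 on HFC, with no overlap between diets (difference -0.89, SE 0.23, p 0.0094). Ctgf (Ccn2 in the reference table), a matrix growth factor, was the other at that threshold, at -1.58 (SE 0.61, p 0.044, outer pairs -0.35). Of 23 Wnt signalling genes 1 was lower, the antagonist Dkk2 (-1.38, SE 0.48, p 0.0314, outer pairs -0.49), beside 6.05% of all probes. The list median was -0.26, with 0.10 over the outer pairs.

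Complement and acute phase genes had 20 of 25 positive, a median of 0.82 and 2 higher at p under 0.05, beside 2.19% of all probes. Over the outer pairs the median was 0.05, with 0 genes at that threshold. C2, a protease of the classical pathway, had 4.73, 4.15, 4.13 and 4.05 on LFC and 4.94, 5.83, 5.06 and 4.76 on HFC and no overlap, with 1 HFC spot saturated (difference 0.88, SE 0.29, p 0.0265, outer pairs 0.46). C4b differed by 1.26 (SE 0.50, p 0.0476, outer pairs 0.29). Interferon stimulated genes (median -0.44, outer pairs -0.12, 29 genes) and cell cycle genes (-0.17, outer pairs -0.18, 37 genes) had 0 at p under 0.05. The cell cycle list was higher on HFC at day 6 and day 10 and lower at day 14 and week 0, with pair medians of 0.19, 0.83, -1.11 and -0.64.

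Among other blood cells, 3 of 16 neutrophil genes were lower at p under 0.05 (median -0.36), and 5 of the 16 differences were positive. The lower ones included the receptor Trem1, with -6.74, -3.64, -4.17 and -3.82 on LFC and -8.00, -4.78, -6.51 and -4.69 on HFC (-1.40, SE 0.30, p 0.00442). Trem1 was not well above background on all 8 arrays, and under the alternatives run its difference ranged from -1.74 to -0.50. The 3 neutrophil markers had a median of -2.06, -0.54, -1.03 and -0.10 on LFC and -1.35, -0.51, -1.29 and -1.23 on HFC. Csf3r, a marker of that set, was higher on HFC except at week 0. The T cell list had 1 of 21 lower, the homing receptor Ccr7 (-1.68, SE 0.55, p 0.0247, outer pairs -0.64). Its list median was 0.37, with pair medians of 0.17, 1.92, -0.04 and -0.35, and -0.14 over the outer pairs. The B cell list had 1 of 15 lower, Fcer2a (-1.04, SE 0.23, p 0.00461). Fcer2a was well above background on 3 LFC arrays and 1 HFC array, so its difference is mostly against values at background. Under the alternatives run its difference ranged from -1.28 to -0.33. Mast cell and eosinophil genes were split, 1 of 12 higher and 2 lower, one of the latter being Fcer1a, the alpha chain of the IgE receptor, with -4.12, -3.43, -4.63 and -4.62 on LFC and -5.16, -5.54, -6.31 and -5.53 on HFC and no overlap (-1.43, SE 0.28, p 0.00279). The blood list had 3 of 8 lower, with platelet genes Ppbp (-1.28, SE 0.39, p 0.0185, outer pairs -0.65) and Gp9 (-1.30, SE 0.49, p 0.0405, outer pairs -0.24) among them. Of all probes 6.05% were lower and 2.19% higher at p under 0.05. The shares lower in the T cell list (4.76%) and the B cell list (6.67%) were near that.

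Lists of tissues near the fat pad or far from it gave the following, beside 6.05% of all probes lower and 2.19% higher at p under 0.05. The epididymis list had 4 of 20 genes lower at p under 0.05 and a median of -1.76, with pair medians of -0.28, -1.64, -6.11 and 1.89. Its difference turned to 0.83 over the outer pairs. The testis list had 0 of 11 at that threshold and a median of -1.48, and 0.31 over the outer pairs, and Prm2, a sperm protamine, had -4.18, 2.74, -0.24 and -3.66 on LFC and -5.33, -4.85, -3.85 and -1.90 on HFC. Its high values were on the LFC arrays of day 10 and day 14. Skeletal muscle had 2 of 14 lower (median -0.60), pancreas 3 of 7 lower (-1.01), liver 0 of 11 in either direction (0.77) and the subcutaneous depot list 1 of 7 higher and 1 lower (-0.06, but 0.09 with normexp, 0.31 with quantile and 0.07 with median scaling). Over the outer pairs the medians were -0.07 for skeletal muscle, -0.69 for pancreas, 0.41 for liver and 0.04 for the subcutaneous depot.

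The genes with the smallest p and the same sign in every pair were taken without regard to function, 12 per direction. The 12 higher on HFC were Afm, Adra1a, Spock3, Asb12, Gata5, Slc13a3, Agmat, Trim67, Ap1s3, Bmp3, Arhgef37 and Tfcp2l1, with differences of 1.12 to 3.42. Of these, Afm, Adra1a, Spock3, Asb12, Gata5 and Arhgef37 were well above background on 1 LFC array and 4 HFC arrays. They passed the filter on dim probes through HFC alone, so their differences are against values at background. Afm, afamin, a vitamin E binding protein of the albumin family, had -5.88, -7.62, -6.40 and -8.34 on LFC and -4.00, -5.81, -4.35 and -6.59 on HFC (difference 1.87, SE 0.20, p 0.000123). With the normexp correction it differed by 0.22, and the diets overlapped through the low pair of week 0. Asb12, of a family that links proteins to ubiquitin ligases, had -3.76, -6.48, -8.68 and -9.11 on LFC and -1.97, -2.64, -3.69 and -6.06 on HFC, with a difference of 3.42, against 0.94 with normexp (p 0.310).

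Agmat, an agmatinase-like enzyme, had -2.03, -3.09, -2.88 and -3.24 on LFC and -1.15, -1.60, -0.998 and -0.91 on HFC and no overlap (difference 1.64, SE 0.30, p 0.00185). Slc13a3, a dicarboxylate transporter, had -4.52, -5.07, -3.09 and -3.36 on LFC and -1.66, -3.90, -0.62 and -1.92 on HFC (difference 1.98, SE 0.35, p 0.00177). Gata5, a transcription factor known from heart and gut, differed by 1.64, against 0.14 with normexp (p 0.890). Tfcp2l1, a factor known from epithelia and stem cells, differed by 1.12 (SE 0.22, p 0.00297). For Adra1a, an alpha-1 adrenergic receptor, the 2 probes disagreed, with -0.49 and 1.95. Those of Trim67, a ubiquitin ligase of the TRIM family, numbered 7 and ran from -0.05 to 2.46.

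The 12 lower on HFC were Cyp2c66, Tac1, Ptx3, Elfn1, Olfr686, Disp3, Drd2, Olfr1276, Glipr1l3, Gpr142, Wnt1 and Gast, with differences of -3.83 to -1.16. Of these, Cyp2c66, Tac1, Olfr686 and Olfr1276 were well above background on 4 LFC arrays and 1 HFC array, and so passed the filter through LFC alone. Ptx3, the long pentraxin of local acute inflammation, was the brightest of the 24, with -1.34, 0.65, 1.18 and 3.15 on LFC and -2.47, -1.52, -1.51 and 1.03 on HFC. It was lower on HFC in each pair, although week 0 was high on both diets. The difference was -2.03 (SE 0.31, p 0.000776), and its other probe gave -1.86. Tac1, the precursor of substance P, had -4.91, -3.79, -4.34 and -2.67 on LFC and -8.14, -8.93, -9.05 and -4.89 on HFC, a difference of -3.83, against -1.06 with normexp. Elfn1, a synaptic organiser, had -4.30, -3.25, -3.24 and -3.50 on LFC and -5.46, -4.45, -4.76 and -5.11 on HFC and no overlap (-1.37, SE 0.21, p 0.000828). Cyp2c66, a cytochrome P450, had -5.00, -4.15, -5.43 and -5.63 on LFC and -6.64, -6.02, -7.56 and -7.56 on HFC, a difference of -1.89, against -0.48 with normexp. Of the 24 genes 10 were well above background on all 8 arrays, and with the normexp background correction 23 kept their sign and 1 its p under 0.05.

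The later weeks (weeks 3 to 18, 6 pairs of the same diets) were set against the first 2 weeks by limma on the paired differences. For early minus late 0 of the 30483 probes passed (0%), with 1607 at an unadjusted p under 0.05 and a smallest adjusted p of 0.191. Lep, at 3.08 early, had a mean diet difference of 0.72 late, higher on HFC in 4 of 6 pairs (early minus late 2.36, p 0.0396, adjusted p 0.833 by limma). Nnat was at 1.54 late (higher in 4 of 5 pairs), Npr3 at 1.02 (5 of 6), Bmp3 at 0.84 (5 of 5) and Mest at 1.67 (6 of 6). The week 3 pair was far above the others for Lep (4.29, others -1.09 to 0.69), Npr3 (4.16, others -0.03 to 1.22) and Mest (4.55, others 0.83 to 1.85). Without weeks 3 and 12, the pairs that hold the arrays with 16431 and 10531 outlier spots, the late means were 0.28 for Lep, 0.94 for Nnat, 0.19 for Npr3, 0.61 for Bmp3 and 0.91 for Mest. Sfrp5, lower on average early, was at 0.63 late. The whole list had a late median of 0.70, and 0.24 without those pairs.

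Dbp and Lcn2 had another sign in the late pairs. Dbp was at 0.87 late (early minus late -1.94, p 0.00875), and 0.89 without weeks 3 and 12. Lcn2 was at -2.39, higher on HFC in 0 of 6 pairs (3.27, p 0.00257), and -1.95 without them. Cxcl1 was at 2.04 (-6.10, p 0.024), which rests on week 12 (10.2, other late pairs -0.36 to 0.48), and its late mean without weeks 3 and 12 was 0.0076. The adjusted limma p of each was 0.833.

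The immediate early list had a late median of 0.61, which also rests on week 12, with a pair median of 4.27 there and -0.26 to 0.27 in the other late pairs. Without weeks 3 and 12 it was -0.0060, and the genes at p under 0.05 for early minus late numbered 8 of 28 in place of 16. The extracellular matrix list had 0.89 late with 11 of 36 genes at that threshold, and 0.36 with 4 genes without those weeks. The mesothelium list had 0.55 late, and 0.47 without them, with 0 of 16 genes at the threshold in both. The macrophage list had 0.24 with 2 of 27, and -0.17 with 4. All probes together had a late median of 0.09, and 0.03 without them, with 5.27% and 7.19% at that threshold. With weeks 3 and 12 left out 2 probes passed at an adjusted p of 0.05 for early minus late. These were Slc6a3, the dopamine transporter (-3.82), and the olfactory receptor gene Olfr340 (-4.31), both with an adjusted limma p of 0.0344 and neither well above background on all arrays of either diet. They are named here after their values were seen.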

How the data were processed

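RNA was labelled with Cy3 and hybridised to one-colour Agilent arrays of 45220 spots (40628 probes). The deposited scanner files hold intensity values that, per the file headers, Feature Extraction 10.5.1.1 had background-subtracted (the submitters' processing notes name version 9.1). The authors' deposited table gives log2 values relative to the time-matched LFC array after GeneSpring GX and was used as an alternative. The log2 of the processed signal of non-control spots, minus the array's 75th percentile, was tested. Outlier spots were removed, spots of a probe averaged, and a probe kept where at least 4 of the 8 arrays had it well above background.

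Differences were tested with limma 3.58.1 in R 4.3.3 (two-sided, Benjamini-Hochberg over all probes), with time point as a block. The fit was tested on simulated data. Python 3.11.15 (numpy 2.4.6, pandas 2.3.3, matplotlib 3.10.9) and data.table (1.17.8) handled data and plots. A gene of a list was its brightest tested probe. Of 795 genes in 39 lists 747 were tested, 41 did not pass the filter on low signals and 7 were not on the array. Named genes are the 12 per direction with the smallest p among those with 1 sign in all 4 pairs, a difference of at least 1 log2, a gene symbol and signal above background on the 4 arrays of the higher diet. From each list the gene with the smallest p, those with the largest differences and those whose role explains the list could be named, and the text gives some of them, the rest as counts. Members and lists were chosen with earlier results of these data known. Accessions of 28136 of 40628 probes (69.3%) matched a reference list of symbols on GRCm38.p6, and the array's name was kept otherwise.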

Additional observations from a re-analysis of the deposited data

Results flagged for a closer look

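Among 126 groups of 4 arrays tested (named genes and lists on each diet), 6 held an array far from the other 3, and chance gives such a gap in about 1 group in 20. On LFC, Adra1a at week 0 was -9.06, against -6.35 to -6.06 on the other arrays. The adipokine list was highest on LFC at week 0, with a median of 2.63 against 1.89 to 2.01. The immediate early list was lowest on LFC at day 6, with 1.21 against 4.47 to 4.94. The circadian clock list was also lowest on LFC at day 6, with -0.60 against 0.07 to 0.18. On HFC, the T cell list was highest at day 10, with -1.01 against -3.39 to -3.19. The testis list was highest on HFC at week 0, with -1.90 against -3.86 to -3.56.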

How the results depend on the processing

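The number of probes passing an adjusted p of 0.05 was 0 under every alternative run, with a smallest adjusted p of 0.140 (day 10 and day 14 pairs alone) to 1.00. The number higher and lower on HFC at an unadjusted p under 0.05, 669 and 1844, changed under normexp (112 and 208), quantile scaling (1040 and 1030) and array weights (398 and 1116), and was 368 and 1039 by the methods' t-test. Leaving out 1 pair gave 241 to 1410 higher (fewest without day 14, most without day 6) and 717 to 2737 lower (fewest without day 10, most without week 0). Without the time point as a replicate block, that is without the pairing, they were 297 and 668. Alternatives added after the data were seen gave 302 and 586 with the day 6 and week 0 pairs alone, and 2790 and 4780 with the day 10 and day 14 pairs alone. For early minus late, 2 probes passed with weeks 3 and 12 left out.

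Spock3 turned to -0.032 with normexp. With the day 6 and week 0 pairs alone Tnf turned to 0.28, Cldn5 to 0.14, Bhlhe40 to 0.29, Lcn2 to -0.29, Ccl6 to -0.19, Ccr2 to -0.28 and Prm2 to 0.31. The cause was not tested. Slide and scan date were not fitted as blocks, because each scan date held 1 pair and so equals the time point, and 1 pair of the 4 shared a slide. Dim probes and saturated probes are limited by signal over background and by the scanner's upper end.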
